A study of Mus musculus with 9 samples.

Results

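The fatty acid module comprised 43 genes for making, desaturating, transporting, storing and burning fatty acids. They were the rows of the gene count tables whose symbol was on a fixed name list, 43 of 55291 listed genes, and every one of the 43 passed the low-count filter that left 15066 genes for testing. Transcripts were measured in mouse acute myeloid leukaemia (AML) cells recovered from 3 places: the lungs of recipient mice, the bone marrow of recipient mice, and in vitro culture. The recipients were wild type (WT), and the leukaemia cells carried the genotype Trp53(R172H/delta) in all 3 groups, so no group without that genotype was compared. There were 3 libraries per group and 9 in all, made from low-input total RNA. The labels do not say how the cells were purified from tissue, how many mice or cultures were used, or whether the libraries came from separate ones, so p-values measure only the spread between these libraries, which may be technical.

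Fatty acid synthesis runs in the cytosol, where acetyl-CoA is carboxylated to malonyl-CoA and built into palmitate, which is then elongated and desaturated in the endoplasmic reticulum. Oxidation runs mainly in mitochondria: long-chain acyl-CoA enters through the carnitine shuttle and is shortened by repeated dehydrogenation, hydration, dehydrogenation and thiolysis, and the electrons pass through the electron transfer flavoprotein to the respiratory chain. Malonyl-CoA inhibits carnitine palmitoyltransferase, which links the opposing routes. Leukaemia cells can take up fatty acids from their surroundings as well as make them, and the balance of uptake, synthesis and oxidation in marrow has been widely studied in AML.

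Libraries held 27485111 to 38761363 counted reads. Levels are CPM, counts per 1e+06 reads of the library size scaled by the TMM method. The progenitor genes Kit (506 to 1214 CPM), Myb, Gata1, Gata2 and Klf1 were abundant in every library, whereas Cebpa did not exceed 0.398 CPM and was at 0 in culture, and the pan-leukocyte gene Ptprc did not exceed 17.2 CPM. Markers of other cells differed between the groups, and single libraries held the most of them. The 10 neutrophil markers summed to 11.6 to 83.5 CPM in lung, 336 to 2063 CPM in bone marrow and 1.28 to 2.43 CPM in culture, with the maximum in bone marrow replicate 3. The 10 lung epithelium markers summed to 17.9 to 89.8 CPM in lung, 2.23 to 4.25 CPM in bone marrow and 4.49 to 4.86 CPM in culture, with the maximum in lung replicate 1. Calls of lung against bone marrow that changed without those 2 libraries are given below. Leaving them out does not remove the marker difference between the groups. Bone marrow replicates 1 and 2 held 336 and 588 CPM of neutrophil markers, and lung replicates 2 and 3 held 11.55 and 11.64 CPM. The part of these other cells in the results was not tested. In bulk RNA, fewer cells of a type and less RNA per cell cannot be told apart.

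In both tissues the leukaemia cells held far less desaturase RNA than in culture, whereas the 19 oxidation genes were mixed, with 9 higher and 5 lower in lung and 10 higher and 5 lower in bone marrow than in culture. In a further list of 24 tested oxidation genes falls outnumbered rises, with 1 higher and 15 lower in lung and 5 higher and 10 lower in bone marrow. Every adjusted p is from edgeR's quasi-likelihood F test with Benjamini-Hochberg adjustment over all 15066 tested genes, and a gene was called at an adjusted p under 0.05. Changes are log2 with a standard error (SE), derived as the absolute log2 change divided by the square root of the F statistic. In bone marrow against culture, 21 of the 43 genes fell (48.8%), against 29.8% of all tested genes, and 11 rose (25.6%), against 30.7% of all. In lung against culture, 19 fell (44.2%), against 27% of all tested genes, and 12 rose (27.9%), a share equal to the 27.9% of all. Both comparisons use the same 3 culture libraries, so they are not independent of each other. The 43 genes were chosen with earlier results of these data known, so their shares are a description with no test.

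In lung against bone marrow, 7 genes rose (16.3%), against 14.2% of all tested genes, and 5 fell (11.6%), against 11.1% of all. Those shares were close to the background with all 9 libraries. Without lung replicate 1 and bone marrow replicate 3 together, 5 genes were higher (11.6%, against 12.7% of all tested genes) and 7 were lower (16.3%, against 8.59% of all). Cpt1a (adjusted p = 0.0634), Acadvl (0.115), Etfa (0.05) and Etfdh (0.0501) were then no longer called. Hadh (log2 change -0.39, adjusted p = 0.0174), Acaa2 (-0.43, 0.0233), Acss2 (-0.34, 0.0234) and Fads3 (0.35, 0.0414) were called in addition. The 3 values of each group did not overlap for 15 of the 43 genes in lung against bone marrow (34.9%), where 36.6% of all tested genes did not. They did not overlap for 35 in bone marrow against culture (81.4%), where 67.2% of all did not, and for 34 in lung against culture (79.1%), where 66.8% of all did not. The median coefficient of variation of the module was 9.47% in lung, 8.81% in bone marrow and 3.53% in culture, and over all tested genes it was 11.5%, 13.7% and 6.75% in the same order of groups.

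**Figure D1:**
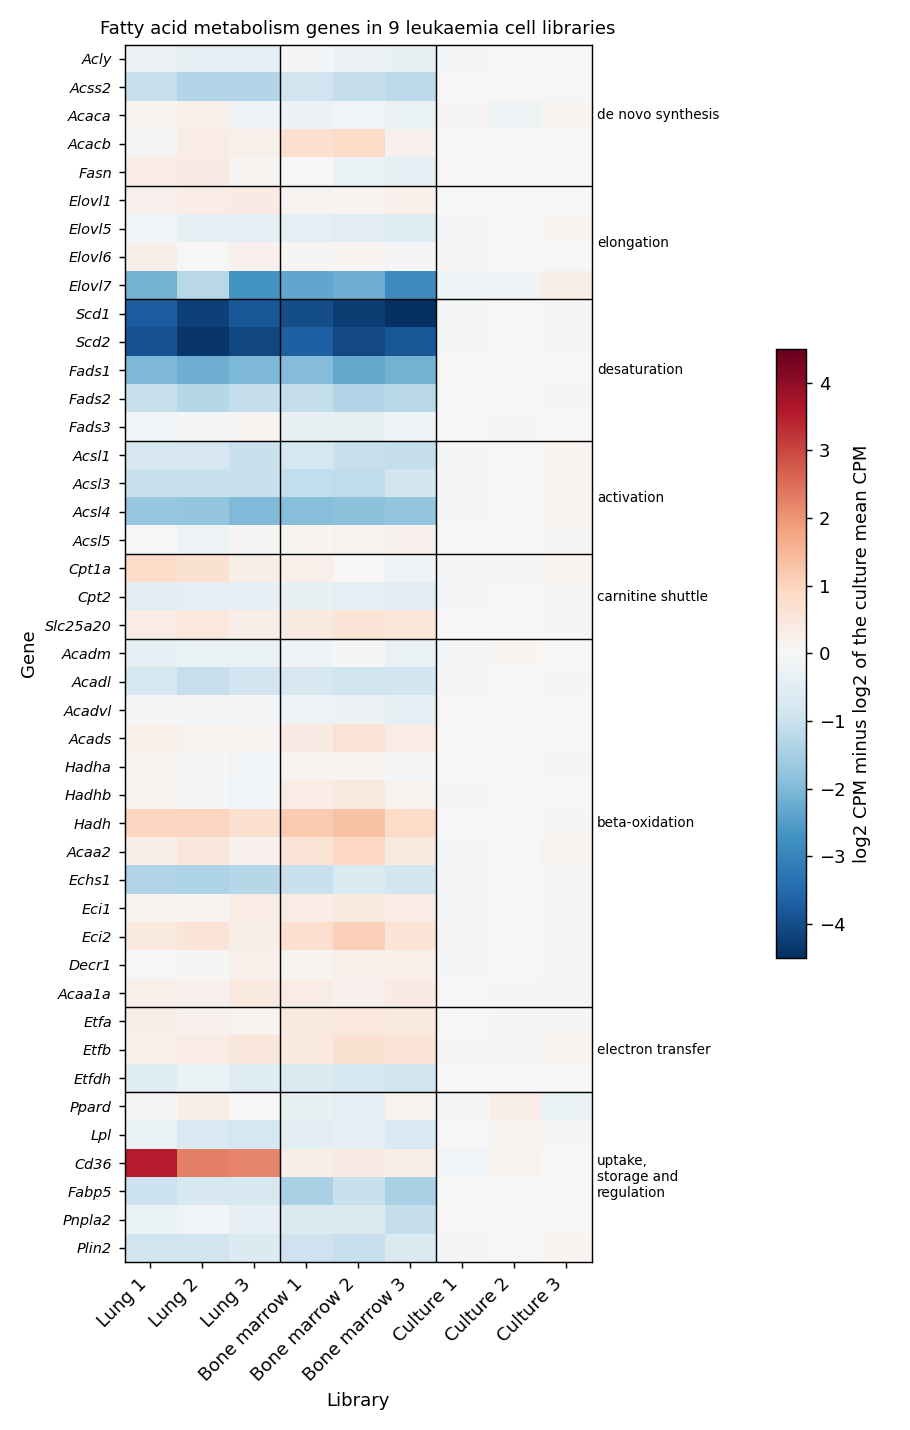
Heat map of the 43 genes (vertical axis, ordered by role) in the 9 libraries (horizontal axis), coloured by log2 CPM minus the log2 of the culture mean CPM. Scd1 and Scd2 are the darkest blue in all 6 tissue libraries, and Cd36 is the darkest red in the 3 lung libraries, most of all in lung replicate 1.

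The stearoyl-CoA desaturases, which place a double bond in saturated acyl chains to make oleate and palmitoleate, carried the largest differences in the module. Scd1 (chr19:44394455-44407879, minus strand, GRCm38) had 45.9, 33.0 and 43.2 CPM in lung, 38.2, 31.5 and 23.2 CPM in bone marrow, and 577, 615 and 632 CPM in culture. All 6 tissue libraries lay below all 3 culture libraries, while lung and bone marrow overlapped. Scd1 was 14.9-fold lower in lung than in culture (log2 change -3.90 ± 0.18 SE, adjusted p = 3.52e-08) and 19.7-fold lower in bone marrow than in culture (-4.30 ± 0.18, adjusted p = 1.32e-08). In lung against bone marrow its log2 change was 0.40 ± 0.17 (adjusted p = 0.105), which did not pass.

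Its neighbour Scd2 (chr19:44293674-44306864, plus strand), an isoform of the same enzyme, had 412, 303 and 367 CPM in lung, 489, 377 and 431 CPM in bone marrow, and 6019, 6197 and 6507 CPM in culture. The tissue libraries again lay apart from culture and overlapped with each other. Scd2 fell by 4.11 ± 0.13 on the log2 scale in lung against culture (adjusted p = 3.41e-10) and by 3.85 ± 0.13 in bone marrow against culture (adjusted p = 1.11e-10). Per exon length, in reads per kilobase of exon at CPM scale (RPKM), Scd2 was at 66.1 ± 10.04 in lung, 79.1 ± 10.2 in bone marrow and 1142 ± 45.2 in culture (SD, n = 3). That was the highest RPKM level of all 43 genes in culture, ranked 1, whereas it ranked 7 in lung and 6 in bone marrow. Scd1 and Scd2 share little sequence with other genes, at 4.56% and 3.97% of their 50-base stretches.

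The polyunsaturated fatty acid desaturase genes Fads1 and Fads2 also fell. Fads1, Fads2 and Fads3 lie side by side on chromosome 19, from 10041569 to 10196877 in GRCm38. Fads2, which carries out the initial desaturation of linoleate and linolenate, had 236, 197 and 230 CPM in lung, 228, 194 and 205 CPM in bone marrow, and 482, 474 and 497 CPM in culture. Fads1, which acts later in the path to arachidonate, had 164, 145 and 165 CPM in lung, 173, 137 and 153 CPM in bone marrow, and 670, 678 and 668 CPM in culture. For both genes each tissue library was below each culture library, and the tissues overlapped. Fads1 was 4.26-fold lower in lung than in culture (-2.09 ± 0.09, adjusted p = 1.99e-09) and 4.36-fold lower in bone marrow (-2.12 ± 0.09, adjusted p = 1.15e-09). Fads2 was 2.19-fold lower in lung (-1.13 ± 0.09, adjusted p = 2.51e-07) and 2.32-fold lower in bone marrow (-1.21 ± 0.09, adjusted p = 9.79e-08).

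Fads3, a desaturase of sphingoid bases, differed little. It averaged 37.8 ± 3.57 CPM in lung, 31.9 ± 2.40 CPM in bone marrow and 38.5 ± 0.928 CPM in culture (SD, n = 3). Its fall in bone marrow against culture (-0.27 ± 0.10, adjusted p = 0.0312) was lost when bone marrow replicate 1 or 2 or culture replicate 1 or 3 was left out. That call was also lost with upper-quartile scaling (0.0988) and without the low-count filter (0.0812). In lung against culture its change was -0.03 ± 0.10 (adjusted p = 0.841). In all, 4 of 5 desaturases (80%) fell in lung against culture, where 27% of all tested genes fell. In bone marrow against culture 5 of 5 (100%) fell, where 29.8% of all tested genes did. In lung against bone marrow 0 of 5 were called, where 25.3% of all tested genes were called in either direction.

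**Figure D2:**
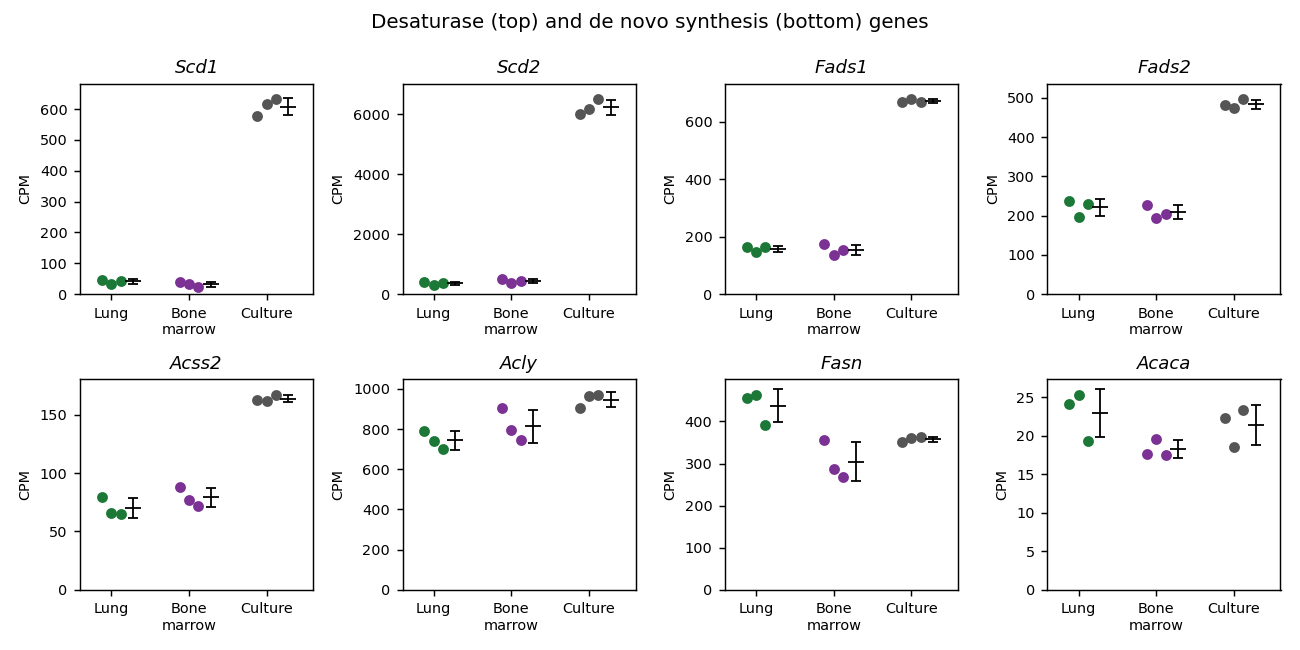
CPM (vertical axes, linear from 0) of 4 desaturase genes (top) and 4 de novo synthesis genes (bottom) in lung, bone marrow and culture; points are libraries, and the horizontal mark with bars is the mean ± SD of 3. Scd1, Scd2, Fads1, Fads2 and Acss2 are lower in every tissue library than in every culture library, whereas Fasn is highest in lung and Acaca overlaps among all groups.

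The de novo synthesis genes were mixed, with Fasn higher in lung and Acss2 lower in both tissues than in culture. Fasn (chr11:120805846-120824547, minus strand), the synthase that assembles palmitate, had 456, 463 and 392 CPM in lung, 357, 288 and 269 CPM in bone marrow, and 351, 360 and 363 CPM in culture. Each lung library was above each library of the other groups, and bone marrow overlapped culture. Fasn was 1.44-fold higher in lung than in bone marrow (0.52 ± 0.10, adjusted p = 0.00319), a call kept in all 18 alternative analyses, with log2 changes of 0.41 to 0.65. It was 1.22-fold higher in lung than in culture (0.29 ± 0.10, adjusted p = 0.0286), a call lost without lung replicate 1 (adjusted p = 0.08), without lung replicate 2 (0.147), or without any one culture library (0.0718 to 0.14). In bone marrow against culture its change was -0.23 ± 0.10 (adjusted p = 0.0626).

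The acetyl-CoA carboxylase genes differed little. Acaca (chr11:84129672-84401651, plus strand), which supplies malonyl-CoA for synthesis, had 24.1, 25.3 and 19.4 CPM in lung, 17.6, 19.6 and 17.5 CPM in bone marrow, and 22.3, 18.5 and 23.4 CPM in culture. The groups overlapped and Acaca passed in no comparison, with adjusted p = 0.0763 in lung against bone marrow, 0.139 in bone marrow against culture and 0.532 in lung against culture. Its counts are uncertain because 29.2% of its 50-base stretches also occur in the locus Gm5182, which itself did not exceed 0.675 CPM. Acacb, the mitochondrial isoform whose malonyl-CoA restrains the carnitine shuttle, averaged 4.80 ± 0.686 CPM in lung, 6.62 ± 1.54 CPM in bone marrow and 4.29 ± 0.0438 CPM in culture (SD, n = 3). It rose in bone marrow against culture (0.62 ± 0.20, adjusted p = 0.0153), and that call was lost without bone marrow replicate 2 (0.0697) and, by a small margin, without culture replicate 1 (0.0511) or 2 (0.055).

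The 2 enzymes that feed cytosolic acetyl-CoA both fell in tissue, by different amounts. Acss2, which makes acetyl-CoA from acetate, had 79.7, 65.7 and 65.0 CPM in lung, 88.2, 77.2 and 71.9 CPM in bone marrow, and 163, 161 and 167 CPM in culture. No tissue library reached culture, and lung overlapped bone marrow. Acss2 was 2.33-fold lower in lung than in culture (-1.22 ± 0.10, adjusted p = 3.78e-07) and 2.07-fold lower in bone marrow than in culture (-1.05 ± 0.10, adjusted p = 9.91e-07). Acly, which makes it from citrate, averaged 743 ± 45.3 CPM in lung, 815 ± 83.0 CPM in bone marrow and 947 ± 36.7 CPM in culture (SD, n = 3). Its fall was 1.27-fold in lung against culture (-0.35 ± 0.09, adjusted p = 0.00383) and 1.16-fold in bone marrow against culture (-0.22 ± 0.09, adjusted p = 0.0431). Bone marrow overlapped culture for Acly, and the call in bone marrow against culture was kept in 7 of the 18 alternative analyses. Per length Acly was among the most abundant genes of the module, at 140.8 ± 8.59 RPKM in lung, 154.3 ± 15.7 RPKM in bone marrow and 179.4 ± 6.96 RPKM in culture.

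The promoters of 3 genes that moved differently are shown so that the start regions of a synthase that rose in lung and of an acetyl-CoA synthetase and a desaturase that fell in tissue can be compared. They are 250 bases before to 50 bases after the RefSeq start, build GRCm38.p6, written 5′ to 3′ on the gene's strand, at chr11:120824498-120824797 (minus strand, Fasn), chr2:155517793-155518092 (plus strand, Acss2) and chr19:10101454-10101753 (minus strand, Fads2). Capitals mark matches on either strand to any of 4 motifs searched, namely CCAAT (the CCAAT box, read ATTGG on the other strand), TCACNCCAC (a sterol regulatory element, the sequence bound by SREBP factors), CACGTG (an E-box) and a direct repeat of AGGTCA with 1 free base between the copies (the kind bound by PPAR receptors).
Fasn: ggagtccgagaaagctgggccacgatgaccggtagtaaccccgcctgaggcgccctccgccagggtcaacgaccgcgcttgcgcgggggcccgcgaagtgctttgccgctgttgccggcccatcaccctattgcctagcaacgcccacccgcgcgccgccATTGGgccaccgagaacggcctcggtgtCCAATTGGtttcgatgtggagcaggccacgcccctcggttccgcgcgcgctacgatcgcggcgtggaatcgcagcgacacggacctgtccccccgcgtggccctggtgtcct
Acss2: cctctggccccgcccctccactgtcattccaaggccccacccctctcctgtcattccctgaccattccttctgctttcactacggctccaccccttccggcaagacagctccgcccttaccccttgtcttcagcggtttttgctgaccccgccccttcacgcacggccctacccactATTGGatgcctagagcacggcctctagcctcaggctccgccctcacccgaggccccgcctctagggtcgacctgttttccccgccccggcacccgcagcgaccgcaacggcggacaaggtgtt
Fads2: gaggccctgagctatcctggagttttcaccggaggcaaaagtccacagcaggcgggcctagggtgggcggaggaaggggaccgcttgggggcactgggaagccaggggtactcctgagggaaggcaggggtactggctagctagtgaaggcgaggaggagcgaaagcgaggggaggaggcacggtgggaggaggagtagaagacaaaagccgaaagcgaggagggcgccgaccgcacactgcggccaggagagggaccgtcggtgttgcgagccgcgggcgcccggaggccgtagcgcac
Fasn held 3 CCAAT boxes, of which 2 overlap, Acss2 held 1, and Fads2 held none of the 4 motifs. These matches describe the letters of the windows only.

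Elongation was mixed. Elovl1, an elongase of very long saturated and monounsaturated chains, averaged 164 ± 10.5 CPM in lung, 149 ± 6.65 CPM in bone marrow and 134 ± 1.54 CPM in culture (SD, n = 3), and rose in lung against culture (0.29 ± 0.08, adjusted p = 0.00525). Elovl5, which elongates polyunsaturated chains, averaged 120 ± 16.1 CPM in lung, 107 ± 7.14 CPM in bone marrow and 150 ± 8.16 CPM in culture. It fell in bone marrow against culture (-0.49 ± 0.10, adjusted p = 6.94e-04) and in lung against culture (-0.32 ± 0.10, adjusted p = 0.0135), the second of which was lost without lung replicate 2 (0.0569) or 3 (0.0537) or culture replicate 3 (0.0557). Elovl6, which takes palmitate to stearate, passed in no comparison, its adjusted p running from 0.163 to 0.877. Elovl7 was scarce, at 1.39 ± 0.720 CPM in lung, 0.949 ± 0.204 CPM in bone marrow and 5.15 ± 1.02 CPM in culture, and fell 3.73-fold in lung against culture (adjusted p = 2.79e-04) and 5.44-fold in bone marrow against culture (adjusted p = 3.38e-05). No elongase was called in lung against bone marrow.

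Acyl-CoA synthetases activate free fatty acids for use in lipids or for oxidation, and 3 of the 4 measured (75%) fell in both tissues against culture. Of all tested genes, 27% fell in lung and 29.8% in bone marrow against culture. Acsl4, which prefers arachidonate and other polyunsaturated chains, had 135, 131 and 111 CPM in lung, 118, 124 and 128 CPM in bone marrow, and 417, 435 and 469 CPM in culture. The gap between tissue and culture was wide and the tissues overlapped. Acsl4 was 3.50-fold lower in lung than in culture (-1.81 ± 0.09, adjusted p = 4.91e-09) and 3.58-fold lower in bone marrow than in culture (-1.84 ± 0.09, adjusted p = 2.68e-09). Acsl3, a droplet-associated isoform, had 46.4, 46.4 and 46.4 CPM in lung, 43.4, 42.1 and 53.2 CPM in bone marrow, and 89.0, 92.3 and 99.8 CPM in culture. It too was lower in every tissue library, by 2.02-fold in lung (-1.01 ± 0.10, adjusted p = 1.8e-06) and in bone marrow (-1.02 ± 0.10, adjusted p = 1.24e-06).

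Acsl1, an isoform that serves oxidation in heart and fat, averaged 69.8 ± 6.49 CPM in lung, 64.4 ± 6.39 CPM in bone marrow and 124 ± 6.15 CPM in culture (SD, n = 3), and fell by 0.83 ± 0.10 (log2) in lung against culture (adjusted p = 9.05e-06) and by 0.94 ± 0.10 in bone marrow against culture (adjusted p = 2.08e-06). Acsl5, the most abundant of the family per length at 134.2 RPKM in lung, 154.1 RPKM in bone marrow and 139.2 RPKM in culture, passed in no comparison (adjusted p 0.0895 to 0.608). None of the 4 was called in lung against bone marrow. The promoter at one of the RefSeq starts of Acsl1 (chr8:46490716-46491015, plus strand, GRCm38.p6) is shown because it was the only one of 38 promoters of the module with the sterol regulatory element letters, on the minus strand in the longest run of capitals, beside 2 CCAAT boxes.
Acsl1: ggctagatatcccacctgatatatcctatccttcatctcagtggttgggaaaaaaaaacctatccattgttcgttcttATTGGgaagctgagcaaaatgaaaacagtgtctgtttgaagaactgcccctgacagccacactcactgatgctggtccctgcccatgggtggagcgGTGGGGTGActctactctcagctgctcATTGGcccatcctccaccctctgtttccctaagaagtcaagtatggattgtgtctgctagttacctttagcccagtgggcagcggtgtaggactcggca
TCACNCCAC was found in 2.63% of the module's 38 promoters and in 1.24% of all 32851 promoters of the same length, CACGTG in 5.26% (Elovl5 and Plin2) and 7.15%, CCAAT in 52.6% and 37.4%, and the AGGTCA direct repeat in none of the module's and 0.0396% of all. The RefSeq table gave promoters for 36 of the 43 genes, without Acaa2, Decr1, Fabp5, Fads1, Lpl, Scd1 and Scd2.

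At the gate of oxidation, the outer carnitine palmitoyltransferase differed between the tissues. Cpt1a, the rate-limiting step of fatty acid entry into mitochondria, had 166, 147 and 110 CPM in lung, 108, 92.5 and 82.6 CPM in bone marrow, and 89.9, 88.4 and 98.7 CPM in culture. Each lung library was above each bone marrow and culture library, the nearest pair being 110 CPM in lung and 108 CPM in bone marrow, and bone marrow overlapped culture. Cpt1a was 1.49-fold higher in lung than in bone marrow (0.58 ± 0.14, adjusted p = 0.0107) and 1.53-fold higher in lung than in culture (0.61 ± 0.14, adjusted p = 0.00274). In bone marrow against culture its change was 0.03 ± 0.14 (adjusted p = 0.854). The call between the tissues was lost without lung replicate 2 (0.53, adjusted p = 0.0536) and without lung replicate 1 and bone marrow replicate 3 together (0.36, adjusted p = 0.0634). Its RefSeq promoter (chr19:3323051-3323350, plus strand, GRCm38.p6) is shown as that of the one shuttle gene that differed between the tissues, with its single CCAAT box in capitals.
Cpt1a: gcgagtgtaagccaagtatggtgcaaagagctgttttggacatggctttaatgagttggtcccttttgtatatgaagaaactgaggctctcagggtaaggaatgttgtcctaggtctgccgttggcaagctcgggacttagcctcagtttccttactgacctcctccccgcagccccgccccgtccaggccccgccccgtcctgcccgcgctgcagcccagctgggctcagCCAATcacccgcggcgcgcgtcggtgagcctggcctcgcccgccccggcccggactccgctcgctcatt

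The other shuttle genes were not called between the tissues. Cpt2, the inner-membrane transferase, had 28.4, 29.6 and 31.1 CPM in lung, 32.1, 29.7 and 28.5 CPM in bone marrow, and 39.03, 40.7 and 41.9 CPM in culture. It was lower in all tissue libraries and overlapped between the tissues, falling by 0.45 ± 0.09 (log2) in lung against culture (adjusted p = 9.8e-04) and by 0.43 ± 0.09 in bone marrow against culture (adjusted p = 0.00119). Slc25a20, the carnitine-acylcarnitine carrier between both transferases, averaged 45.5 ± 2.85 CPM in lung, 50.6 ± 3.97 CPM in bone marrow and 35.4 ± 0.943 CPM in culture (SD, n = 3). It rose in lung against culture (0.36 ± 0.09, adjusted p = 0.00481) and in bone marrow against culture (0.51 ± 0.09, adjusted p = 3.08e-04).

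The 4 acyl-CoA dehydrogenases, which open each oxidation cycle for chains of different length, did not move together. Acadl (chr1:66830839-66863277, minus strand), for long chains, had 248, 212 and 234 CPM in lung, 260, 230 and 239 CPM in bone marrow, and 414, 431 and 445 CPM in culture. Both tissues lay below culture and overlapped with each other. Acadl was 1.86-fold lower in lung than in culture (-0.89 ± 0.08, adjusted p = 9.86e-07) and 1.77-fold lower in bone marrow than in culture (-0.82 ± 0.08, adjusted p = 1.44e-06). Acads, for short chains, averaged 97.9 ± 3.35 CPM in lung, 119 ± 14.04 CPM in bone marrow and 86.7 ± 1.81 CPM in culture (SD, n = 3). It rose in bone marrow against culture (0.46 ± 0.09, adjusted p = 5.43e-04) and fell in lung against bone marrow (-0.28 ± 0.09, adjusted p = 0.0325), a call kept in 11 of the 18 alternatives and lost without any one lung library, bone marrow replicate 2 or culture replicate 2 or 3 (adjusted p 0.0507 to 0.134). Acadm, for medium chains, fell in lung against culture (-0.35 ± 0.10, adjusted p = 0.00697), with -0.16 ± 0.10 in bone marrow against culture (adjusted p = 0.16).

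Acadvl, for very long chains, averaged 79.8 ± 1.95 CPM in lung, 67.4 ± 4.41 CPM in bone marrow and 83.3 ± 0.729 CPM in culture (SD, n = 3). It fell in bone marrow against culture (-0.31 ± 0.08, adjusted p = 0.00419) and rose in lung against bone marrow (0.24 ± 0.08, adjusted p = 0.0367). The call between the tissues was kept in 6 of the 18 alternative analyses and lost on leaving out any one library other than bone marrow replicate 1 (adjusted p 0.0548 to 0.15). Both values are uncertain, because 42.9% of its exonic bases overlap Dvl2 on the opposite strand and the counts did not use strand. Reads of the overlap cannot be assigned, and Dvl2 itself changed by 0.23 in lung against bone marrow (adjusted p = 0.101) and by -0.68 in bone marrow against culture (adjusted p = 4.27e-05).

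Among the later steps of the cycle, Hadh and Acaa2 rose in both tissues against culture, Echs1 fell, and Hadha passed in no comparison. Hadh, the hydroxyacyl-CoA dehydrogenase for short chains, had 131, 133 and 111 CPM in lung, 151, 169 and 124 CPM in bone marrow, and 66.2, 66.6 and 69.9 CPM in culture. Every tissue library was above every culture library, and lung overlapped bone marrow. Hadh was 1.85-fold higher in lung than in culture (0.89 ± 0.11, adjusted p = 1.48e-05) and 2.19-fold higher in bone marrow than in culture (1.13 ± 0.11, adjusted p = 1.23e-06). Hadha, the large subunit of the trifunctional protein for long chains, had 200, 192 and 172 CPM in lung, 199, 201 and 178 CPM in bone marrow, and 184, 184 and 191 CPM in culture. Its groups overlapped and it passed in no comparison, with log2 changes of -0.04 ± 0.08 in lung against bone marrow, 0.05 ± 0.08 in bone marrow against culture and 0.01 ± 0.08 in lung against culture (adjusted p 0.611 to 0.922).

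Hadhb, its thiolase-bearing partner, averaged 99.2 ± 9.94 CPM in lung, 123 ± 9.97 CPM in bone marrow and 99.3 ± 2.95 CPM in culture (SD, n = 3). It rose in bone marrow against culture (0.31 ± 0.09, adjusted p = 0.0102) and fell in lung against bone marrow (-0.31 ± 0.09, adjusted p = 0.0257). In GENCODE M21, 18.1% of its 50-base stretches are shared with the locus Gm13910, which is not among the 55291 listed genes. The call between the tissues was lost without lung replicate 2 (0.0898) or 3 (0.0826) or bone marrow replicate 2 (0.0902). It was also lost with the 6 lung and bone marrow libraries fitted alone (0.0736). The call of Hadhb in bone marrow against culture was lost without culture replicate 1 (0.066). Acaa2, the thiolase that closes the cycle, averaged 157 ± 17.6 CPM in lung, 198 ± 37.0 CPM in bone marrow and 124 ± 9.14 CPM in culture. It rose in bone marrow against culture (0.67 ± 0.13, adjusted p = 4.86e-04) and in lung against culture (0.33 ± 0.12, adjusted p = 0.0377), the second of which was lost without lung replicate 1 (0.0571) or 2 (0.204), bone marrow replicate 1 (0.0611) or culture replicate 1 (0.185) or 2 (0.131).

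Echs1, the short-chain enoyl-CoA hydratase, which also serves valine breakdown, went against Hadh. It had 45.2, 45.1 and 48.2 CPM in lung, 59.0, 74.8 and 65.4 CPM in bone marrow, and 113, 117 and 120 CPM in culture. The 3 groups did not overlap at all, lung being lowest and culture highest. Echs1 was 2.53-fold lower in lung than in culture (-1.34 ± 0.09, adjusted p = 9.57e-08) and 1.76-fold lower in bone marrow than in culture (-0.81 ± 0.09, adjusted p = 5.37e-06). It was 1.44-fold lower in lung than in bone marrow (-0.52 ± 0.09, adjusted p = 0.00175), which held in all 18 alternative analyses, with log2 changes of -0.61 to -0.43.

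Of the auxiliary enzymes that deal with double bonds, Eci2 rose in both tissues against culture. Eci2, an enoyl-CoA isomerase, averaged 59.2 ± 6.45 CPM in lung, 78.1 ± 13.2 CPM in bone marrow and 43.7 ± 1.28 CPM in culture (SD, n = 3). It was 1.35-fold higher in lung than in culture (adjusted p = 0.00665) and 1.79-fold higher in bone marrow than in culture (adjusted p = 3.92e-05). Eci2 was 1.32-fold lower in lung than in bone marrow (adjusted p = 0.0243). This last call was lost without lung replicate 1 (0.0584) or 3 (0.0759) or bone marrow replicate 2 (0.117). It was also lost with the 6 lung and bone marrow libraries fitted alone (0.0658). Its sister isomerase Eci1 rose 1.27-fold in bone marrow against culture (adjusted p = 0.00329) and 1.16-fold in lung against culture (adjusted p = 0.0465). The call of Eci1 in lung was kept in 9 of the 18 alternatives and lost without any one lung or culture library, or without bone marrow replicate 3 (adjusted p 0.0576 to 0.237). Decr1, the dienoyl-CoA reductase for polyunsaturated chains, passed in no comparison (adjusted p 0.0745 to 0.472). The peroxisomal thiolase Acaa1a rose 1.23-fold in both lung (adjusted p = 0.0171) and bone marrow (adjusted p = 0.0143) against culture, with 12.4% of its 50-base stretches shared with Acaa1b. Both calls of Acaa1a were lost without culture replicate 1 (adjusted p = 0.0694 in lung and 0.0507 in bone marrow) or 2 (0.118 and 0.09), and that in lung also without lung replicate 3 (0.106). Over the 13 beta-oxidation genes, 1 rose and 4 fell in lung against bone marrow, 7 rose and 3 fell in bone marrow against culture, and 5 rose and 3 fell in lung against culture. As shares, 7.69% rose and 30.8% fell in lung against bone marrow, where 14.2% and 11.1% of all tested genes did. Against culture, 53.8% rose and 23.1% fell in bone marrow, where 30.7% and 29.8% of all did, and 38.5% rose and 23.1% fell in lung, where 27.9% and 27% of all did.

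Electron transfer split between the carrier and its acceptor. Etfa, the alpha subunit of the electron transfer flavoprotein, averaged 231 ± 8.40 CPM in lung, 272 ± 5.37 CPM in bone marrow and 200 ± 6.59 CPM in culture (SD, n = 3). The groups did not overlap, and Etfa rose in bone marrow against culture (0.44 ± 0.07, adjusted p = 9.9e-05) and in lung against culture (0.21 ± 0.07, adjusted p = 0.0215), and fell in lung against bone marrow (-0.23 ± 0.07, adjusted p = 0.0255). The call between the tissues was lost without lung replicate 2 (0.0832) or 3 (0.0678) or bone marrow replicate 2 (0.063). It was also lost with the 6 lung and bone marrow libraries fitted alone (0.0785) and without the low-count filter (0.0881). The call of Etfa in lung against culture was lost without lung replicate 1 (0.0766) or 2 (0.0781) or culture replicate 1 (0.135) or 2 (0.167). It was also lost without lung replicate 1 and bone marrow replicate 3 together (0.0732) and without the low-count filter (0.0529). The beta subunit Etfb rose in bone marrow against culture (0.57 ± 0.11, adjusted p = 5.83e-04) and in lung against culture (0.35 ± 0.11, adjusted p = 0.0161). In GENCODE M21, 53.0% of its exonic bases overlap the same-strand locus Gm45233, which is not among the 55291 listed genes. The call of Etfb in lung was lost without lung replicate 3 (0.0912) or culture replicate 1 (0.0973) or 2 (0.0855). Etfdh, which passes the electrons on to ubiquinone, averaged 115 ± 11.5 CPM in lung, 92.9 ± 7.82 CPM in bone marrow and 160 ± 2.52 CPM in culture. It fell in bone marrow against culture (-0.78 ± 0.09, adjusted p = 5.85e-06) and in lung against culture (-0.47 ± 0.09, adjusted p = 5.52e-04), and rose in lung against bone marrow (0.31 ± 0.09, adjusted p = 0.0222). The call of Etfdh between the tissues was kept in 11 of the 18 alternatives and lost without lung replicate 2 (0.148), bone marrow replicate 2 (0.0631) or 3 (0.0901), or culture replicate 1 (0.0509) or 2 (0.0526). So in tissue the flavoprotein genes were above culture and the acceptor gene was below it.

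**Figure D3:**
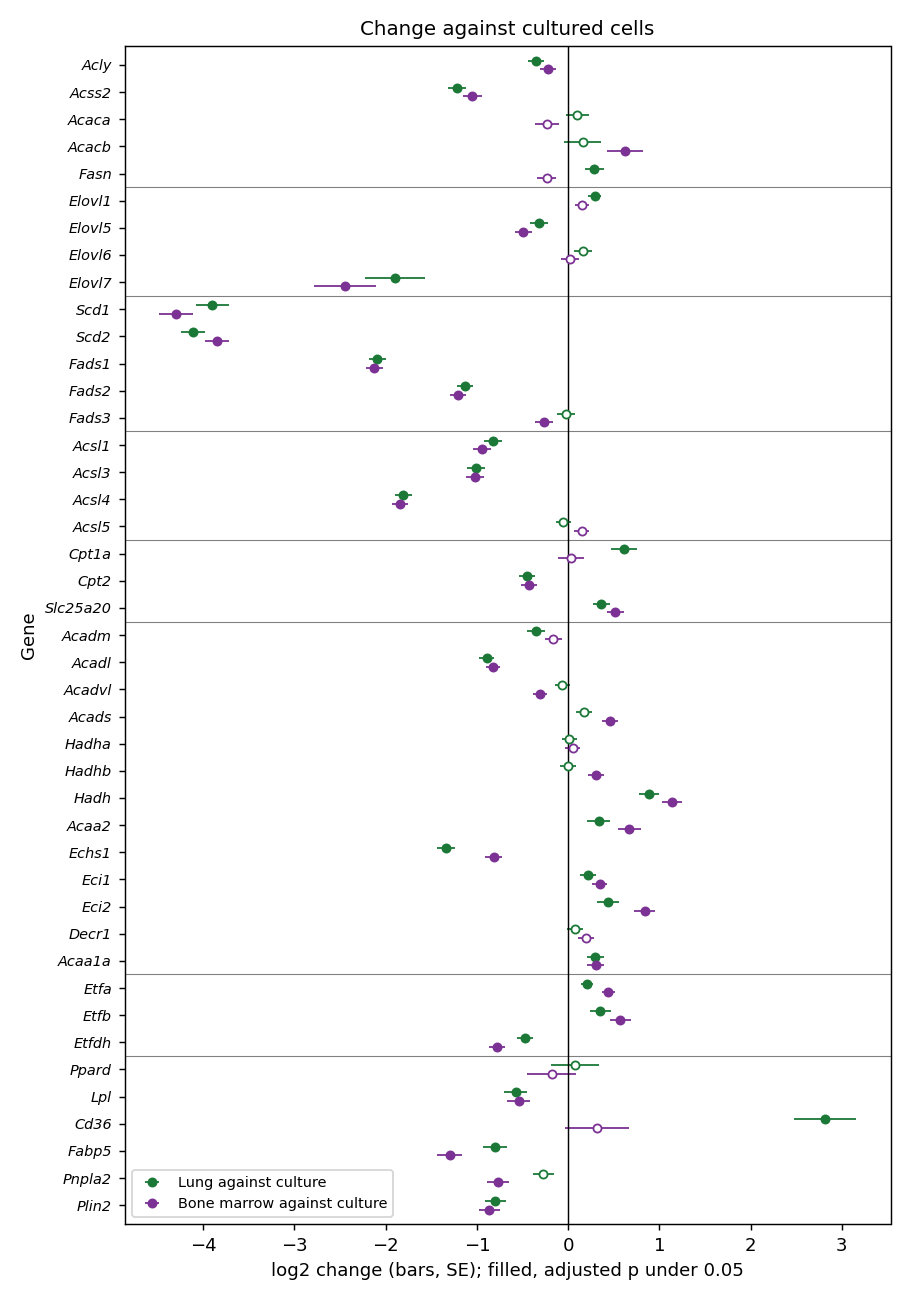
Log2 change against culture (horizontal axis, bars ± SE) of each gene (vertical axis, ordered by role from Acly to Plin2), for lung (green) and bone marrow (purple); filled points have an adjusted p under 0.05. The desaturases from Scd1 to Fads2 lie between -4.30 and -1.13, whereas Hadh lies at 0.89 in lung and 1.13 in bone marrow; both series share the culture libraries.

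Among the uptake genes, Cd36 was several times higher in lung than in either other group. This gene encodes a translocase that takes up long-chain fatty acids. Cd36 had 14.3, 5.97 and 5.63 CPM in lung, 1.52, 1.58 and 1.49 CPM in bone marrow, and 1.11, 1.35 and 1.21 CPM in culture. All lung libraries were above all others, lung replicate 1 well above the other lung libraries. Cd36 was 5.65-fold higher in lung than in bone marrow (2.50 ± 0.33, adjusted p = 2.67e-04) and 7.03-fold higher in lung than in culture (2.81 ± 0.34, adjusted p = 1.63e-05). Without lung replicate 1 the log2 change was 1.92 against bone marrow (adjusted p = 1.43e-04) and 2.24 against culture (adjusted p = 6.28e-06). In bone marrow against culture it was 0.32 ± 0.35 (adjusted p = 0.449).

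Cd36 is also expressed by endothelium, macrophages and adipocytes, and markers of some of these moved with it. Of 11 tested endothelium markers 10 rose in lung against bone marrow, a comparison in which 14.2% of all tested genes rose and 11.1% fell. Pecam1, for example, had 9.72, 3.07 and 2.82 CPM in lung, 0.595, 0.341 and 0.945 CPM in bone marrow, and 0.111 to 0.142 CPM in culture, with lung replicate 1 highest as for Cd36. The 12 endothelium markers summed to 199.5 to 235 CPM in lung, 156 to 187 CPM in bone marrow and 291 to 327 CPM in culture, most of it Egfl7 and Calcrl, and Tie1 was at 0 in culture. Of the 10 alveolar macrophage markers 5 were tested, and 2 rose and 1 fell in lung against bone marrow. They summed to 6.64 to 22.6 CPM in lung, 29.45 to 159 CPM in bone marrow and 0.497 to 0.708 CPM in culture, and Marco was at 0 in bone marrow and culture. Of the 10 resident macrophage markers 9 were tested, and 0 rose and 5 fell in lung against bone marrow. Those 10 summed to 11.3 to 15.3 CPM in lung, 19.2 to 23.2 CPM in bone marrow and 12.4 to 12.9 CPM in culture. The 8 adipocyte markers summed to no more than 0.759 CPM in any library, and none was tested. The part of other cells in the Cd36 result was not tested.

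Fabp5, Pnpla2, Plin2 and Lpl fell in bone marrow against culture. Fabp5, an intracellular carrier of fatty acids, had 17.0, 19.8 and 20.2 CPM in lung, 11.9, 16.4 and 11.96 CPM in bone marrow, and 33.6, 32.3 and 33.1 CPM in culture. The 3 groups did not overlap, with bone marrow lowest. Fabp5 was 1.42-fold higher in lung than in bone marrow (0.50 ± 0.13, adjusted p = 0.0154), 1.74-fold lower in lung than in culture (adjusted p = 1.83e-04) and 2.46-fold lower in bone marrow than in culture (adjusted p = 2.17e-06). Its call between the tissues was lost without lung replicate 2 (adjusted p = 0.0605) or bone marrow replicate 3 (0.0513). That call was also lost with the 6 lung and bone marrow libraries fitted alone (0.0539). Pnpla2, the lipase that starts triglyceride breakdown in droplets, had 51.9, 59.1 and 49.5 CPM in lung, 42.6, 40.7 and 30.4 CPM in bone marrow, and 64.7, 64.9 and 64.1 CPM in culture. Its groups were also separate in the order bone marrow, lung, culture. Pnpla2 rose by 0.50 ± 0.12 in lung against bone marrow (adjusted p = 0.00901, and 0.0575 without lung replicate 2). It fell by 0.77 ± 0.12 in bone marrow against culture (-0.77, adjusted p = 8.87e-05). In lung against culture its change was -0.27 ± 0.12 (adjusted p = 0.067), which did not pass.

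Plin2, a coat protein of lipid droplets, had 50.5, 50.5 and 61.3 CPM in lung, 49.3, 45.3 and 60.5 CPM in bone marrow, and 89.2, 94.1 and 98.8 CPM in culture. The tissues overlapped and both lay below culture, 1.74-fold lower in lung (-0.80 ± 0.11, adjusted p = 5.64e-05) and 1.82-fold lower in bone marrow (-0.86 ± 0.11, adjusted p = 2.26e-05). Lpl, which releases fatty acids from lipoproteins, averaged 43.1 ± 8.27 CPM in lung, 44.1 ± 3.93 CPM in bone marrow and 64.3 ± 3.65 CPM in culture (SD, n = 3), and fell 1.49-fold in lung (adjusted p = 0.00146) and 1.46-fold in bone marrow (adjusted p = 0.00188) against culture. The nuclear receptor Ppard stayed between 1.30 and 2.18 CPM in all 9 libraries and passed in no comparison (adjusted p 0.511 to 0.823).

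**Figure D4:**
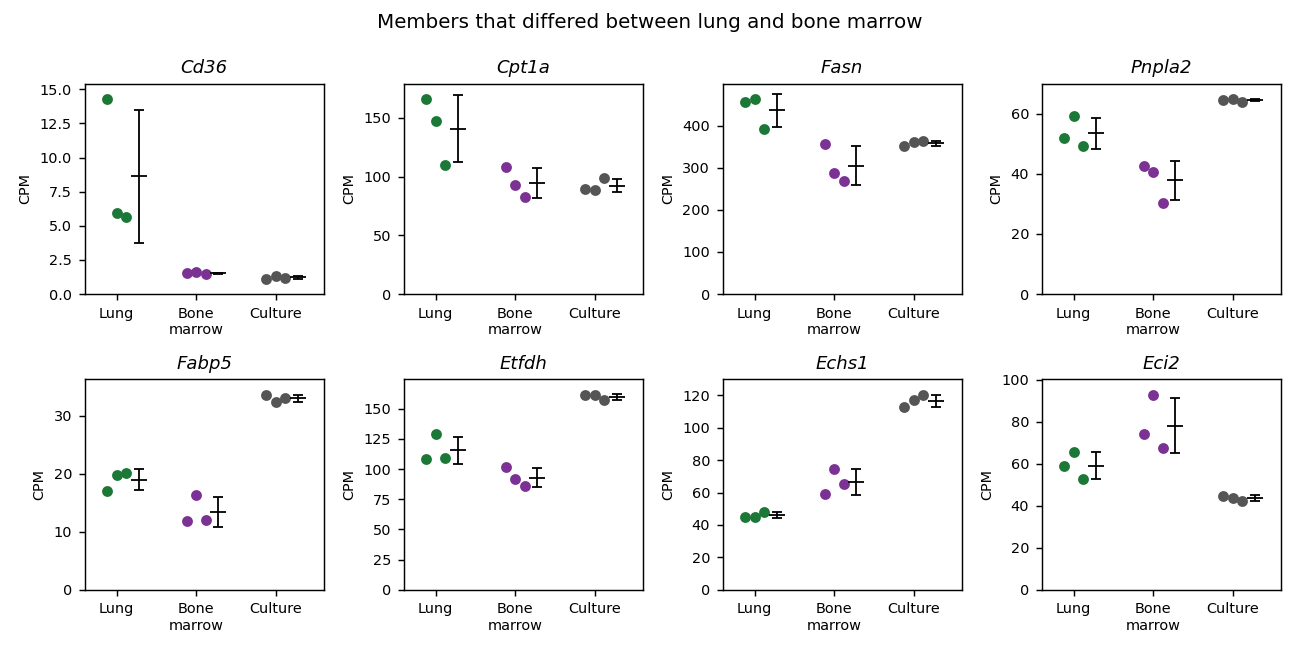
CPM (vertical axes, linear from 0) of 8 of the 12 genes called in lung against bone marrow, in lung, bone marrow and culture; points are libraries, and the horizontal mark with bars is the mean ± SD of 3. Cd36, Cpt1a, Fasn, Pnpla2, Fabp5 and Etfdh are higher in every lung library than in every bone marrow library, and Echs1 and Eci2 are lower in every lung library.

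Relative to the oxidation genes, the synthesis genes were lower in both tissues than in culture. The synthesis side is the 14 genes of de novo synthesis, elongation and desaturation, and the oxidation side the 19 genes of the carnitine shuttle, beta-oxidation and electron transfer. In lung against bone marrow, 1 synthesis gene rose and 0 fell, while 3 oxidation genes rose and 5 fell. In bone marrow against culture, 1 synthesis gene rose and 9 fell (64.3%), while 10 oxidation genes rose (52.6%) and 5 fell. In lung against culture, 2 synthesis genes rose and 8 fell (57.1%), while 9 oxidation genes rose (47.4%) and 5 fell. Of all tested genes, 14.2% rose and 11.1% fell in lung against bone marrow, 30.7% rose and 29.8% fell in bone marrow against culture, and 27.9% rose and 27% fell in lung against culture. The median log2 change was -0.38 for synthesis and 0.30 for oxidation in bone marrow against culture, and -0.33 and 0.18 in lung against culture, beside 0.05 and 0.03 for all tested genes in these comparisons.

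Per library, the mean log2 CPM of the synthesis genes minus that of the oxidation genes was -0.22, -0.29 and -0.30 in lung, -0.38, -0.57 and -0.52 in bone marrow, and 0.77, 0.74 and 0.77 in culture. All tissue libraries were below all culture libraries, and lung was above bone marrow without overlap. The difference between lung and bone marrow turned with the summary used, being 0.22 with means over the genes and -0.024 with medians. CPM are not per length, so the sign of a value carries no meaning and differences between groups are what can be read. This is a description with no test, since the genes were chosen with results known. The oxidation mean hardly varied, at 6.34 ± 0.02 in lung, 6.46 ± 0.08 in bone marrow and 6.33 ± 0.04 in culture, while the synthesis mean was 6.07 ± 0.05, 5.97 ± 0.12 and 7.09 ± 0.04 in the same groups (log2 CPM, SD, n = 3). A small number of genes carried much of the difference. Scd1 and Scd2 made up 14.4% to 17.8% of the summed synthesis CPM in lung, 18.3% to 20.3% in bone marrow and 69.1% to 70% in culture. Without them the same difference was -0.41 ± 0.04 in lung, -0.63 ± 0.08 in bone marrow and 0.12 ± 0.02 in culture (SD, n = 3).

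**Figure D5:**
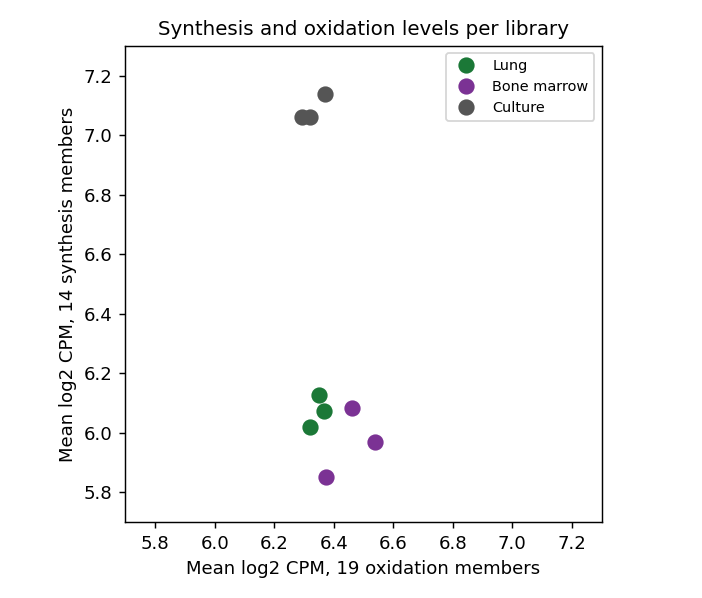
Mean log2 CPM of the 14 synthesis genes (vertical axis) against that of the 19 oxidation genes (horizontal axis); each point is a library. The 3 lung and 3 bone marrow libraries lie at lower synthesis means than the 3 culture libraries, at similar oxidation means.

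Genes of the same pathways outside the module were examined as 4 lists, whose counts are read against the shares of all tested genes. These were 14.2% higher and 11.1% lower in lung against bone marrow, 30.7% and 29.8% in bone marrow against culture, and 27.9% and 27% in lung against culture. Among 17 tested lipid regulators of 20 listed, 5 rose and 0 fell in lung against bone marrow, 3 rose and 8 fell in bone marrow against culture, and 4 rose and 8 fell in lung against culture. The regulators that rose in lung against bone marrow were 29.4% of those tested, and those that fell were 47.1% in each comparison with culture. Srebf1, whose product activates fatty acid synthesis and desaturase genes, had 258, 213 and 237 CPM in lung, 273, 237 and 265 CPM in bone marrow, and 694, 684 and 699 CPM in culture. Srebf2, its counterpart for sterol genes, had 290, 280 and 245 CPM in lung, 257, 216 and 220 CPM in bone marrow, and 679, 687 and 720 CPM in culture. Both were lower in each tissue library than in culture and overlapped between tissues. Srebf1 fell by 1.55 ± 0.09 (log2) in lung (adjusted p = 1.4e-08) and by 1.42 ± 0.09 in bone marrow (adjusted p = 1.91e-08) against culture, and Srebf2 fell by 1.36 ± 0.09 in lung (adjusted p = 6.15e-08) and by 1.59 ± 0.09 in bone marrow (adjusted p = 9.95e-09).

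The sterol-responsive gene Insig1 differed between the groups. Insig1, whose product retains SREBP precursors, had 36.7, 32.9 and 24.2 CPM in lung, 17.5, 20.4 and 19.1 CPM in bone marrow, and 154, 156 and 167 CPM in culture. Its values did not overlap between any of the groups, with bone marrow lowest. Insig1 was higher in lung than in bone marrow by 0.72 ± 0.13 (adjusted p = 0.00199) and lower in bone marrow than in culture by 3.06 ± 0.14 (log2 change -3.06, adjusted p = 1.37e-09). Nr1h2, which encodes a liver X receptor, rose in lung against bone marrow (0.59 ± 0.08, adjusted p = 3.54e-04). Ppara was not tested, with at most 2 reads in any library.

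Among 18 tested further genes of synthesis and elongation of 20 listed, 2 rose and 3 fell in lung against bone marrow, 7 rose and 6 fell in bone marrow against culture, and 6 rose and 7 fell in lung against culture. Those that fell were 16.7%, 33.3% and 38.9% in the same order, and those that rose 11.1%, 38.9% and 33.3%. Me1, a source of NADPH for lipid synthesis, had 53.9, 69.6 and 68.9 CPM in lung, 50.6, 61.3 and 51.4 CPM in bone marrow, and 434, 448 and 463 CPM in culture. It lay far below culture in each tissue library, with log2 changes of -2.81 ± 0.11 in lung (adjusted p = 8.85e-10) and -3.04 ± 0.11 in bone marrow (adjusted p = 2.62e-10). Slc25a1, which exports citrate from mitochondria, changed by -1.10 ± 0.09 in lung and -1.39 ± 0.09 in bone marrow against culture, and rose in lung against bone marrow (0.29 ± 0.08, adjusted p = 0.0243). Tecr, the reductase of the elongation cycle, changed by -1.01 ± 0.07 in lung and -1.14 ± 0.07 in bone marrow against culture. The mitochondrial synthesis genes Oxsm (-0.59 ± 0.19, adjusted p = 0.0404) and Cbr4 (-0.54 ± 0.12, adjusted p = 0.00653) fell in lung against bone marrow.

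Among further oxidation genes, falls against culture were more numerous than rises. Of 24 tested of 26 listed, 1 rose and 5 fell in lung against bone marrow, 5 rose and 10 fell in bone marrow against culture, and 1 rose and 15 fell in lung against culture. Those that fell were 20.8%, 41.7% and 62.5% in the same order, and those that rose 4.17%, 20.8% and 4.17%. Cpt1c, a brain-type relative of Cpt1a, changed by -2.40 ± 0.26 in lung (adjusted p = 7.38e-06) and -2.39 ± 0.26 in bone marrow (adjusted p = 5.64e-06) against culture. Acad11, an acyl-CoA dehydrogenase, changed by -1.28 ± 0.09 in lung and -1.50 ± 0.09 in bone marrow against culture. Acad10 changed by -1.08 ± 0.20 in lung, and Abcd3, a peroxisomal importer of acyl-CoA, by -0.99 ± 0.09 in bone marrow. In lung against bone marrow, Acot13 (-0.56 ± 0.12, adjusted p = 0.00426) and the acetoacetyl-CoA thiolase Acat1 (-0.55 ± 0.13, adjusted p = 0.0112) fell.

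In the triglyceride and droplet list, 20 of 26 genes were tested, and 4 rose and 1 fell in lung against bone marrow, 7 rose and 11 fell in bone marrow against culture, and 7 rose and 7 fell in lung against culture. Those that rose were 20%, 35% and 35% in the same order, and those that fell 5%, 55% and 35%. Plin3, a droplet coat protein, changed by -1.21 ± 0.10 in lung and -1.25 ± 0.10 in bone marrow against culture, and Lipe, hormone-sensitive lipase, by -1.07 ± 0.18 and -0.98 ± 0.18 in the same comparisons. The lysosomal lipase Lipa went the other way in bone marrow against culture (1.06 ± 0.14, adjusted p = 4.07e-05), and Lpin2, a phosphatidate phosphatase, fell in lung against culture (-0.98 ± 0.07, adjusted p = 1.37e-07). Agpat4 (0.72 ± 0.12, adjusted p = 9.49e-04), Slc27a4 (0.58 ± 0.16, adjusted p = 0.0167) and the triglyceride-forming Dgat1 (0.36 ± 0.11, adjusted p = 0.0256) rose in lung against bone marrow.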

How the data were processed

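RNA was measured in 9 libraries of mouse leukaemia cells, 3 each from lung, bone marrow and culture, grouped by their titles. Per the labels' protocols, total RNA was isolated with a micro column kit and libraries were made with the SMART-seq v4 and ThruPLEX kits. Per the submitters' processing notes, bcl2fastq and STAR were used with the mm10 build. The sources used here give no versions, counting tool or annotation. The deposited values are raw whole-number read counts per gene symbol, in tables whose names describe unstranded counting. The whole-number values show no normalisation by the authors.

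Genes were filtered with filterByExpr, scaled with TMM and fitted with edgeR 4.0.16 (quasi-likelihood, robust) in R 4.3.3 on all 9 libraries, as a contrast per comparison, with Benjamini-Hochberg adjustment over 15066 genes and a threshold of 0.05. The fit was tested on simulated data. CPM use scaled library sizes, and RPKM use exon lengths from GENCODE M21 (GRCm38). Alternatives used limma 3.58.1 and DESeq2 1.42.0, other scalings and filters, a replicate block and leaving out libraries. The 43 genes and all lists were chosen with earlier results of these data known. Values in every library are given for genes called with an absolute log2 change of 0.5 or more between tissues, or 1 or more against culture, at 10 CPM or more, and for Fasn, Acaca, Scd1, Scd2, Cpt1a, Cpt2, Acadl, Hadha, Cd36 and Plin2. Pnpla2, just under that size, was added after its values were seen. Of the 4 further lists, the 3 largest called changes at 10 CPM or more are named per comparison, with Srebf1, Srebf2 and Ppara; a few genes that this rule names are not reported here. Depth ran from 27485111 to 38761363 reads, so that 1 read was worth 0.0249 to 0.0371 CPM. Amplified reads are not independent molecules.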

Additional observations from a re-analysis of the deposited data

Results flagged for a closer look

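For 12 of the 43 genes (27.9%) the change of lung against culture differed from that of bone marrow against culture, close to the 25.3% of all tested genes for which it did. The test of that difference is the lung against bone marrow contrast of edgeR's quasi-likelihood fit, in which the culture libraries cancel. Cd36 (log2 difference 2.50), Cpt1a (0.58), Fasn (0.52), Fabp5 (0.50), Pnpla2 (0.50), Etfdh (0.31) and Acadvl (0.24) were higher in lung, and Echs1 (-0.52), Eci2 (-0.40), Hadhb (-0.31), Acads (-0.28) and Etfa (-0.23) were lower in lung. Cd36, Fasn and Echs1 kept their call in all 18 alternative analyses, and the other 9 lost it in at least 1.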

How the results depend on the processing

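No call of the 43 genes changed direction in any of 18 alternative analyses. In lung against bone marrow 3 of 12 called genes kept their call in all of them, in bone marrow against culture 27 of 32, and in lung against culture 24 of 31. Fitting the 6 lung and bone marrow libraries alone gave 2381 called genes in place of 3806, with 4 genes of the module higher and 1 lower in place of 7 and 5. Leaving out 1 library at a time gave 2414 to 4760 called genes, lowest without lung replicate 2 and highest without bone marrow replicate 1, with 2473 without bone marrow replicate 2. Of the module it gave 2 (without lung replicate 2) to 8 higher in lung against bone marrow, with 4 without bone marrow replicate 3. It gave 1 (without lung replicate 3 or bone marrow replicate 2) to 8 (without bone marrow replicate 3) lower, with 3 without lung replicate 1 or 2. In lung against culture it gave 6 (without culture replicate 1 or 2) to 13 higher. The cause of these differences was not tested. Upper-quartile scaling gave 1796 genes higher and 2088 lower in lung against bone marrow, 46.2% higher in place of 56.2%.

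The difference between synthesis and oxidation means was 0.22 in lung against bone marrow (log2), and it reversed to -0.024 with medians in place of means. In bone marrow against culture it was -1.25, with -0.690 for medians and -0.752 without Scd1 and Scd2, an alternative added after the data were seen. In lung against culture it was -1.03, with -0.714 and -0.528 for the same alternatives. Deviations of same-numbered lung and bone marrow libraries correlated at 0.03, 0.268 and 0.087, and those of differently numbered ones at -0.241 to 0.139. With 3 libraries per group these values cannot decide whether replicate numbers pair the libraries. With a replicate block 4133 genes were called in lung against bone marrow, 9228 in bone marrow against culture and 8433 in lung against culture, and 7 genes of the module were higher and 6 lower in lung against bone marrow. Ppard, Elovl7, Cd36 and Acacb rest on the fewest reads.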
